A study of Mus musculus with 2 samples.

Results

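The 10 genes described here, H2-K1, H2-D1, H2-Q7, B2m, Tap1, Tap2, Tapbp, Psmb8, Psmb9 and Nlrc5, build and load major histocompatibility complex (MHC) class I molecules. They are given by symbol, a list drawn up with earlier results of these data known, out of 32285 genes in the count matrices, and UMIs of all 10 were found in both libraries. LYZKL is 1 droplet library of cells from lung tumours, sorted as CD4pos and CD8pos. Its hosts were lethally irradiated KrasLSL-G12D/+ Lkb1fl/fl mice that had received Tmem173fl/fl;Lyz2-Cre bone marrow. WTKL is 1 library, sorted alike, from the same kind of host with Tmem173fl/fl marrow. Both kinds of mouse had been given, through the nose, an adenovirus carrying Cre (Ad-Cre), which starts the tumours, and were sampled at 8 weeks. Tamoxifen is named among the treatments of WTKL but not of LYZKL, so marrow genotype and tamoxifen cannot be told apart. The floxed gene, Tmem173, encodes STING, which relays the sensing of cytosolic DNA, and Lyz2-Cre is a recombinase driven in the myeloid lineage, so lymphocytes of LYZKL are not its target. Host cells that outlive the irradiation are not of the donor marrow's genotype, and the labels do not say how many mice were pooled. With 1 library per group there is no test between groups. All intervals below are 95% intervals of the counting error, which leaves out how mice vary. Those of levels and ratios also leave out how the cells of a class vary, so they are too narrow where cells differ.

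A class I molecule is a heavy chain (H2-K1, H2-D1 and, among the Qa genes, H2-Q7) held together with beta-2 microglobulin, the product of B2m. Peptides are cut by the proteasome, whose inducible subunits include Psmb8 and Psmb9, carried into the endoplasmic reticulum by the transporter Tap1 and Tap2, and fitted into the groove with the help of tapasin (Tapbp). Nlrc5 is a transactivator of several of these genes, and interferons raise most of them. Nearly every nucleated cell makes class I, and CD8 T cells read it on tumour cells and on antigen-presenting cells.

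Of the members, 8 lie in the MHC region of chromosome 17 in GENCODE M21 (GRCm38, the assembly also called mm10, the build named in the submitters' processing notes). H2-K1 spans 33996017 to 34000347 on the minus strand, H2-D1 35262730 to 35267499 and H2-Q7 35439155 to 35443773, both on the plus strand. Tapbp lies at 33915899 to 33929292, Psmb9 at 34181987 to 34187764, Tap1 at 34187553 to 34197225, Psmb8 at 34197721 to 34201454 and Tap2 at 34203527 to 34216321. B2m lies on chromosome 2 from 122147686 to 122153083 and Nlrc5 on chromosome 8 from 94434356 to 94527272. The promoter windows below, 250 bases before to 50 after the start that RefSeq (GRCm38.p6) gives, are read on the gene's own strand. For H2-D1, Tapbp and Psmb8 the whole window lies past the GENCODE start above, inside the span of the gene. The windows printed show what the 3 heavy chain genes share although their ratios differ between the libraries, and B2m and Tap1 are set beside them. Capitals mark matches, on either strand, to 4 short motifs: TTTCACTT, the core of an interferon-stimulated element; GGGATTCCC, a kappa-B type site; TGACG; and CCAAT.
H2-K1, chr17:34000298-34000597, minus strand: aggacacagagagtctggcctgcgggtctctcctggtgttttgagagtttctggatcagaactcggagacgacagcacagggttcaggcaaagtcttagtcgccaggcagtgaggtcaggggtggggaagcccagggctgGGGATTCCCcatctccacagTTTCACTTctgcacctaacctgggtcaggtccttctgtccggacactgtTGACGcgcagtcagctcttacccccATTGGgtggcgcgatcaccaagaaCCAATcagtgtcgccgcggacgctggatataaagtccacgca
H2-D1, chr17:35262844-35263143, plus strand: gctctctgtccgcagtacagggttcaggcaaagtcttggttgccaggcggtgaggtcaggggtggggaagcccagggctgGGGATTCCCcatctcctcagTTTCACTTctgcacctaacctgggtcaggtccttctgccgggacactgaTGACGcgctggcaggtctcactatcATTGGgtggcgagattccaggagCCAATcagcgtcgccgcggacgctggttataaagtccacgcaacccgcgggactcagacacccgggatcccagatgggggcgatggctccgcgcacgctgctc
H2-Q7, chr17:35438905-35439204, plus strand: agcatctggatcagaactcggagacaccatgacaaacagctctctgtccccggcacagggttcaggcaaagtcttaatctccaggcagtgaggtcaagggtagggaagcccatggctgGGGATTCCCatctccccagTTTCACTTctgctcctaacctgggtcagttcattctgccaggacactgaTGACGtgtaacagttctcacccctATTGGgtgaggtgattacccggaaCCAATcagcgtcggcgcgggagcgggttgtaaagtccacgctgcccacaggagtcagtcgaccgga
B2m, chr2:122147437-122147736, plus strand: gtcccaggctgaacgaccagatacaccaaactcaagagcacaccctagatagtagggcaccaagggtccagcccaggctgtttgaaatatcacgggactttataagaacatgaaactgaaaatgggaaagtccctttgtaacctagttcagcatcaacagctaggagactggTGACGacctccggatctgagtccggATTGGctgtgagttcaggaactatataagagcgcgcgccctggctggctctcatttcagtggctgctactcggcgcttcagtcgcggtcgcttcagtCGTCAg
Tap1, chr17:34187306-34187605, plus strand: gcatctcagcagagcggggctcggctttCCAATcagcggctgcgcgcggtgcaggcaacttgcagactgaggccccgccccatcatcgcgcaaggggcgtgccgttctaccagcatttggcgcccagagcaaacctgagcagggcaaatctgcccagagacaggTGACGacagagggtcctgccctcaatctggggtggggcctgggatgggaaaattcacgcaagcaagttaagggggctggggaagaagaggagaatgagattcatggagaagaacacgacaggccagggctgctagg

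H2-K1, H2-D1 and H2-Q7 each held all 4 motifs, and TTTCACTT began 20, 20 and 19 bases after the first letter of GGGATTCCC. Among the promoters of 27025 genes in the table, one window per gene, TTTCACTT was in 1.67%, GGGATTCCC in 0.37%, TGACG in 21% and CCAAT in 37.9%. Only 4 windows held both of the first pair: those of H2-K1, H2-D1, H2-Q7 and H2-Q6, a near-identical neighbour of H2-Q7. The table holds windows for 8 of the 10 members, and of these 6 had TGACG and 7 had CCAAT. The Tap1 window shares 275 of its 300 bases with that of Psmb9, which is read from the opposite strand. A match describes these letters only and is not evidence of a bound factor.

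Barcodes with 500 detected genes or more, and mitochondrially coded UMIs of 10% or less, were kept: 13451 of 13607 in LYZKL and 12003 of 12204 in WTKL, where the labels state 7202 cells for LYZKL and 6609 for WTKL. The libraries share 100 barcode sequences. The cells had been sorted as CD4pos and CD8pos, and besides T cells both libraries held myeloid and B cells. Classes were gated on marker genes, and 6 of them held at least 50 cells in each library. Treg-like cells numbered 604 in LYZKL and 538 in WTKL, CD4 conventional-like cells 3746 and 3969, CD8-like cells 3071 and 2250, B-like cells 366 and 526, neutrophil-like cells 1349 and 1178, and macrophage- or monocyte-like cells 480 and 355. The median depth in UMIs per cell was 6250 in LYZKL and 4712 in WTKL in Treg-like cells, 6408 and 4941 in CD4 conventional-like cells, and 4812 and 5900.5 in CD8-like cells. It was 3423 in LYZKL and 3090.5 in WTKL in B-like cells, 3909 and 3460.5 in neutrophil-like cells, and 13536 and 12695 in macrophage- or monocyte-like cells. Gamma-delta T-like, NK-like, plasma-like and dendritic-like cells were below 50 in at least 1 library and are not described. A further 9.36% of kept cells in LYZKL and 4.39% in WTKL passed no gate. Leiden clusters named neutrophil-like held 3722 cells over both libraries, where the gate took 2527. The largest such cluster held 1655 cells of LYZKL and 589 of WTKL. Whether the gate selects cells alike in both libraries was not tested. Tmem173 was at 4.5 CPM (UMIs scaled to a class total of 1e6) in LYZKL and 20.8 in WTKL in neutrophil-like cells, and at 35.4 and 44.5 CPM in macrophage- or monocyte-like cells. It was at 75.7 CPM in LYZKL and 29.3 in WTKL in Treg-like cells, 46.7 and 23.3 in CD4 conventional-like cells, and 35.3 and 20.9 in B-like cells. CD8-like cells had 33.1 CPM of Tmem173 in LYZKL and 36.8 in WTKL. Which exons are floxed is not stated, and a 3' tag that lies elsewhere in the gene is counted with or without the deletion, so these levels do not check it.

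**Figure D1:**
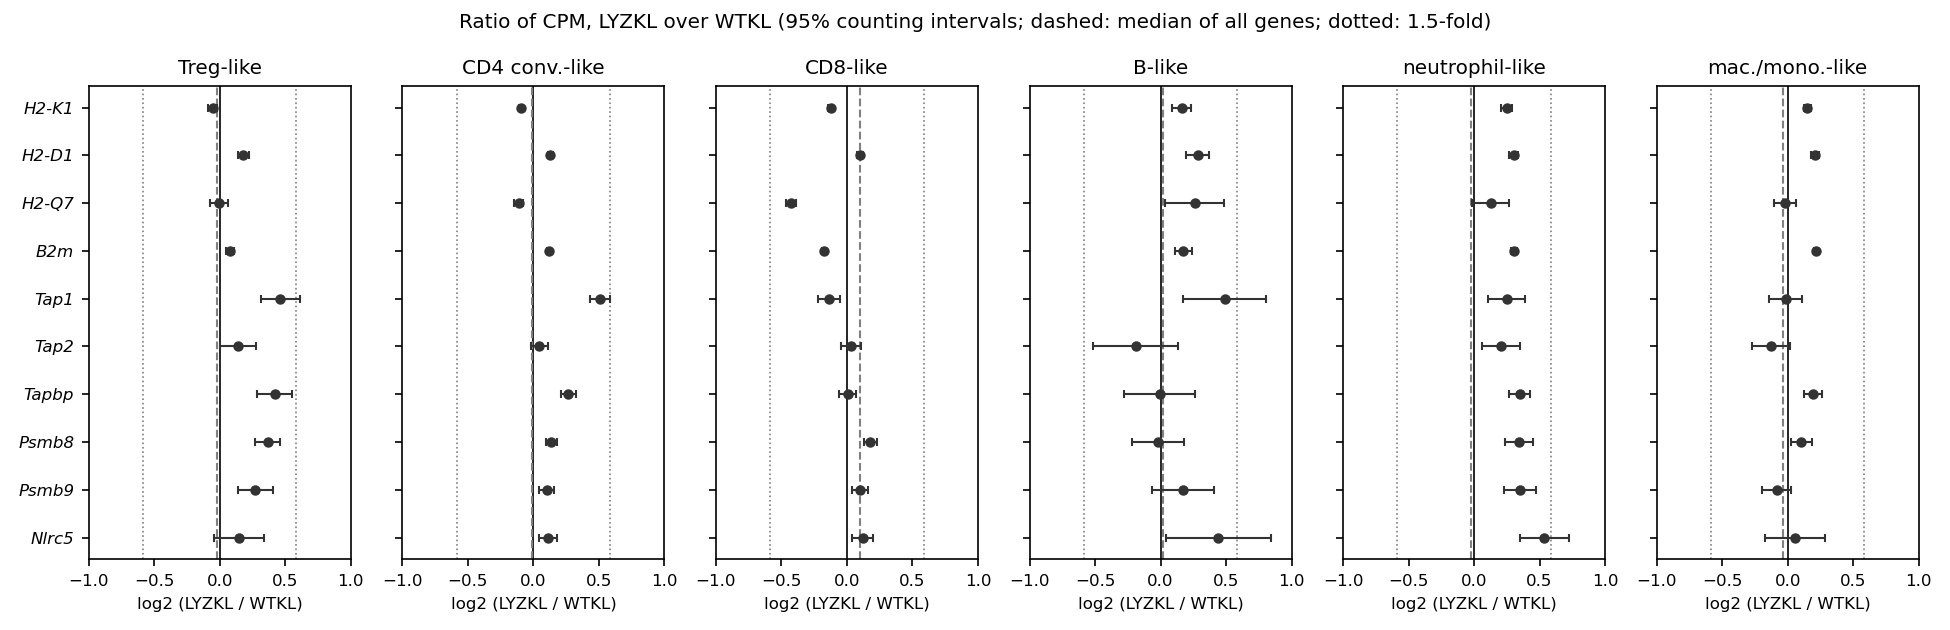
Log2 ratio of CPM, LYZKL over WTKL, for the 10 members in 6 classes, with 95% counting intervals; the dashed line is the median of all genes of at least 5 CPM and the dotted lines mark 1.5-fold. In neutrophil-like cells all 10 points lie to the right of 0, and in CD8-like cells H2-K1, H2-Q7, B2m and Tap1 lie to the left; no point reaches 1.5-fold.

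No member differed by 1.5-fold between the libraries in any of the 6 classes; the 60 log2 ratios ran from -0.43 to 0.53, the largest being 1.45-fold. Over all genes with at least 5 CPM in the mean of both libraries, the share past 1.5-fold in either direction was 8.74% in Treg-like, 4.999% in CD4 conventional-like, 8.78% in CD8-like, 15.4% in B-like, 10.9% in neutrophil-like and 7.59% in macrophage- or monocyte-like cells. Those genes go down to 5 CPM, where counting error is larger, while the lowest level of a member was 56.6 CPM. No share past 1.5-fold was taken at the level of the members. The direction varied by class. In neutrophil-like cells 10 of 10 members were higher in LYZKL, where 46.6% of all genes were, with a median log2 ratio of 0.30 against -0.02 over all genes. In Treg-like cells 8 of 10 were higher (46.4% of all genes; median 0.16 against -0.03), and in CD4 conventional-like cells likewise 8 of 10 (48.5%; median 0.11 against -0.01). In B-like cells 7 of 10 were higher (52.3%; median 0.17 against 0.02). In macrophage- or monocyte-like cells 6 of 10 were higher (44.2%; median 0.08 against -0.04). CD8-like cells also had 6 of 10 higher, but 66.1% of all genes were, with a median of 0.10 over all genes and 0.02 over the members. That background depends on level: of the 1506 genes of at least 100 CPM in CD8-like cells, as all 10 members are there, 52.3% were higher, with a median of 0.01. In the other classes 45.3% to 51.6% of the genes at that level were higher. With edgeR's TMM scaling 52.0% of all genes and 4 of 10 members were higher in CD8-like cells, so the split there depends on the scaling. With the same scaling 9 members were higher in Treg-like cells and 8 in macrophage- or monocyte-like cells, and the counts of the other 3 classes were as above. The scaling moves all genes of a class alike, and the share of all genes higher became 54.1% in Treg-like, 55.8% in CD4 conventional-like, 47.9% in B-like, 56.2% in neutrophil-like and 53.2% in macrophage- or monocyte-like cells.

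Immediate early and heat shock genes are known to respond to tissue handling. They were lower in LYZKL in 13 of 16 measured members in Treg-like cells, 13 of 16 in CD4 conventional-like cells and 16 of 17 in neutrophil-like cells (median -0.41). In CD8-like cells 10 of 16 were higher, where 66.1% of all genes were, and 52.3% of those of at least 100 CPM. The immediate early and heat shock genes were also lower in 12 of 16 in B-like cells and 11 of 17 in macrophage- or monocyte-like cells. Mitochondrially coded genes were lower in LYZKL in 13 of 13 in Treg-like cells and 11 of 12 in neutrophil-like cells. They were lower too in 10 of 13 in CD4 conventional-like, 9 of 13 in CD8-like and 7 of 12 in macrophage- or monocyte-like cells, but higher in 9 of 13 in B-like cells. Set beside both lists, the share of all genes higher in LYZKL was 46.4% in Treg-like, 48.5% in CD4 conventional-like and 52.3% in B-like cells. In neutrophil-like cells that share was 46.6%, and in macrophage- or monocyte-like cells 44.2%. Of the gate genes of other cells, the 7 T cell genes summed to 208 CPM in LYZKL and 275 in WTKL in neutrophil-like cells. The 7 macrophage genes summed to 281 CPM in LYZKL and 236 in WTKL there, and to 78.1 and 93.7 CPM in CD8-like cells, while 3 other macrophage or monocyte markers summed to 12.8 CPM in LYZKL and 20.8 in WTKL in neutrophil-like cells. The 4 neutrophil markers summed to 447 CPM in LYZKL and 217 in WTKL in Treg-like cells. Their sum in CD8-like cells was 795 CPM in LYZKL, against 511 in WTKL, but B-like cells had 232 CPM in LYZKL and 727 in WTKL. The 2 NK markers summed to 1410 CPM in LYZKL and 2442 in WTKL in CD8-like cells. The part of all these in the class I differences was not tested.

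H2-D1, a classical heavy chain, was higher in LYZKL in all 6 classes, which among the 10 members held otherwise only for Nlrc5. It stood at 2577 CPM in LYZKL and 2277 in WTKL in Treg-like cells, 1883 and 1724 in CD4 conventional-like cells, and 2108 and 1966 in CD8-like cells. In B-like cells the levels were 1481 CPM in LYZKL and 1217 in WTKL, in neutrophil-like cells 2621 and 2127, and in macrophage- or monocyte-like cells 3307 and 2858. The log2 ratios ran from 0.10 (0.08 to 0.12) in CD8-like cells to 0.30 (0.26 to 0.34) in neutrophil-like cells. The CD8-like value was 0.015 with TMM scaling and 0.018 with the states described below at the same UMI shares, and within that class H2-D1 had -0.04 in naive-type cells and -0.05 (-0.08 to -0.01) in the cells outside the named states. With the states at the same shares the macrophage- or monocyte-like value was 0.096.

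H2-K1, the other classical heavy chain, split the classes. It was lower in LYZKL in the 3 T cell classes, at 3678 CPM against 3823 in WTKL in Treg-like cells (log2 ratio -0.06, -0.09 to -0.02), 2714 against 2900 in CD4 conventional-like cells (-0.10, -0.11 to -0.08) and 2832 against 3086 in CD8-like cells (-0.12, -0.14 to -0.11). It was higher in LYZKL in the other classes, at 2008 against 1795 CPM in B-like cells (0.16, 0.09 to 0.23), 2113 against 1779 in neutrophil-like cells (0.25, 0.21 to 0.29) and 4451 against 4011 in macrophage- or monocyte-like cells (0.15, 0.12 to 0.18). The Treg-like difference is the smallest of these and turned to 0.03 when each cell counted equally (mean of per-cell CPM) and was -0.003 with TMM scaling. The macrophage- or monocyte-like value changed sign with the states described below at the same UMI shares. Within that class H2-K1 had -0.08 (-0.11 to -0.05) in the Saa3, Cfb or Nos2 state and 0.25 (0.17 to 0.33) in the Ear2, Fabp4 or Chil3 state.

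Because the denominators cancel, the number of H2-D1 UMIs per H2-K1 UMI does not depend on the scaling of the library. This ratio was 0.701 in LYZKL and 0.595 in WTKL in Treg-like cells, 0.694 and 0.594 in CD4 conventional-like cells, and 0.744 and 0.637 in CD8-like cells. The log2 differences there were 0.24 (0.18 to 0.29), 0.22 (0.20 to 0.25) and 0.23 (0.20 to 0.25). It was 0.738 in LYZKL and 0.678 in WTKL in B-like cells (0.12, 0.01 to 0.23) and 0.743 and 0.713 in macrophage- or monocyte-like cells (0.06, 0.02 to 0.10). In neutrophil-like cells, the only class with more H2-D1 than H2-K1 UMIs, it was 1.24 in LYZKL and 1.20 in WTKL (0.05, -0.001 to 0.11). The ratio is compared between libraries and classes, not read as the relative level of the 2 genes. Within the 16 states described below the log2 difference ran from -0.03 to 0.385, and the widest gap was in naive-type Treg-like cells, at 0.659 in LYZKL and 0.504 in WTKL. Heavy chain genes share long stretches of sequence, and how reads in such stretches were assigned is not given in the sources used here, so the levels of H2-K1, H2-D1 and H2-Q7 carry that uncertainty. The H2 haplotypes of hosts and donors are likewise not given there, and whether different alleles are counted in the 2 libraries was not tested.

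**Figure D2:**
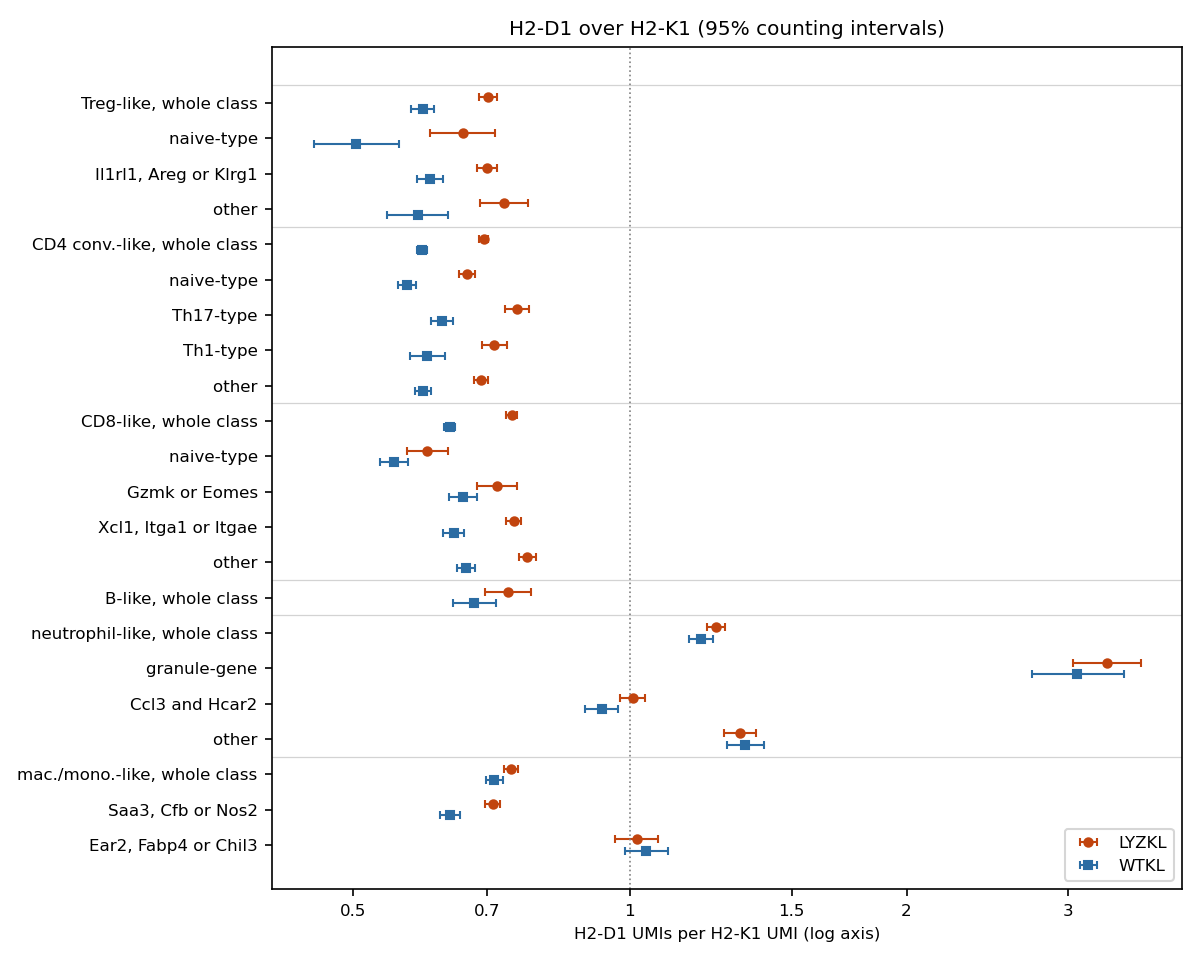
H2-D1 UMIs per H2-K1 UMI (log axis) in LYZKL and WTKL, for whole classes and their states, with 95% counting intervals. The LYZKL point lies to the right of the WTKL point in all 6 whole classes; granule-gene neutrophil-like cells stand apart from all other rows at 3.30 in LYZKL and 3.07 in WTKL.

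H2-Q7, a Qa heavy chain, gave the lowest of the 60 ratios. In CD8-like cells it stood at 569 CPM in LYZKL (558 to 580) and 764 in WTKL (751 to 778), a log2 ratio of -0.43 (-0.46 to -0.39). CD4 conventional-like cells had 507 CPM in LYZKL and 547 in WTKL (-0.11, -0.15 to -0.08), and Treg-like cells 830.5 and 832.9 CPM, with an interval across 0. B-like cells went the other way, with 223 CPM in LYZKL and 186 in WTKL (0.26, 0.04 to 0.49). Neutrophil-like cells had 166 CPM in LYZKL and 152 in WTKL and macrophage- or monocyte-like cells 429 and 435, both with intervals across 0. Its neighbour H2-Q6 was also lower in LYZKL in CD8-like cells (186 CPM in LYZKL and 211 in WTKL, -0.18, -0.25 to -0.11) and higher in B-like cells (192 and 119 CPM, 0.70, 0.43 to 0.96), but in CD4 conventional-like cells it was higher (174 and 146 CPM, 0.25, 0.19 to 0.32), where H2-Q7 was lower. Its other 3 intervals lay across 0.

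B2m, the light chain that all these heavy chains need, was higher in LYZKL in every class but CD8-like cells, where it was at 4088 CPM against 4619 in WTKL (-0.18, -0.19 to -0.16). The largest differences were in neutrophil-like cells, at 5407 CPM in LYZKL and 4377 in WTKL (0.30, 0.28 to 0.33), and in macrophage- or monocyte-like cells, at 11228 and 9676 CPM (0.21, 0.20 to 0.23). Treg-like cells had 4705 CPM in LYZKL and 4461 in WTKL (0.08), CD4 conventional-like cells 3987 and 3678 (0.12) and B-like cells 2622 and 2325 (0.17). The Treg-like value was 0.017 with the highest doublet scores left out, and the macrophage- or monocyte-like value 0.066 with the states at the same UMI shares.

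Tap1, one chain of the transporter, differed in direction between the CD4 and CD8 T cell classes. It was higher in LYZKL in Treg-like cells, at 221 CPM against 160 in WTKL (0.46, 0.31 to 0.61), and in CD4 conventional-like cells, at 141.5 against 99.5 (0.51, 0.43 to 0.58). B-like cells had 125 CPM in LYZKL and 88.9 in WTKL (0.49, 0.17 to 0.80) and neutrophil-like cells 177.5 and 149 (0.25, 0.11 to 0.39). In CD8-like cells it was at 131 CPM in LYZKL, below the 143.5 in WTKL (-0.14, -0.22 to -0.05), and with Leiden clusters as classes this ratio turned to 0.03. Macrophage- or monocyte-like cells had 184 CPM in LYZKL and 186 in WTKL, with an interval across 0. Its partner Tap2 differed less: 229 CPM in LYZKL and 208 in WTKL in Treg-like cells (0.14, 0.003 to 0.28), 169.5 and 164 in CD4 conventional-like cells (0.05, -0.02 to 0.11), 154 and 151 in CD8-like cells (0.03, -0.05 to 0.11) and 161 and 139 in neutrophil-like cells (0.21, 0.06 to 0.35). In B-like cells Tap2 was at 95.8 CPM in LYZKL and 109 in WTKL and in macrophage- or monocyte-like cells at 130 and 142, both with intervals across 0. The number of Tap1 UMIs per Tap2 UMI was therefore higher in LYZKL in Treg-like cells (0.963 in LYZKL and 0.770 in WTKL), CD4 conventional-like cells (0.835 and 0.606) and B-like cells (1.30 and 0.814), and lower in CD8-like cells (0.847 in LYZKL and 0.95 in WTKL).

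Tapbp, which codes for tapasin, was higher in LYZKL in Treg-like cells (274 CPM in LYZKL and 205 in WTKL, 0.42, 0.28 to 0.55), CD4 conventional-like cells (195 and 162 CPM, 0.27, 0.21 to 0.33), neutrophil-like cells (577 and 454 CPM, 0.35, 0.27 to 0.43) and macrophage- or monocyte-like cells (646.5 and 565 CPM, 0.20, 0.13 to 0.27; 0.012 with the states at the same UMI shares). CD8-like cells had 241 CPM in LYZKL and 240 in WTKL and B-like cells 145 and 146, with intervals across 0.

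Psmb8 and Psmb9, the inducible proteasome subunits, had like ratios in neutrophil-like cells, where Psmb8 was at 316 CPM in LYZKL and 249 in WTKL (0.35, 0.24 to 0.45) and Psmb9 at 243 and 190.5 (0.35, 0.23 to 0.47). In Treg-like cells Psmb8 was at 515 CPM in LYZKL and 400 in WTKL (0.37, 0.27 to 0.46) and Psmb9 at 262 and 218 (0.27, 0.14 to 0.40). They were also higher in LYZKL in CD8-like cells, unlike B2m and Tap1: Psmb8 had 425 CPM in LYZKL and 376 in WTKL (0.18, 0.13 to 0.23) and Psmb9 253 and 236 (0.10, 0.04 to 0.16). With the states of the class held at the same shares in both libraries, the log2 ratio of Psmb9 there was 0.000, and with TMM scaling it was 0.015. CD4 conventional-like cells had 396.5 CPM in LYZKL and 361 in WTKL of Psmb8 (0.14) and 195 and 182 of Psmb9 (0.10; 0.002 with Leiden clusters as classes). Macrophage- or monocyte-like cells had 486 CPM in LYZKL and 453 in WTKL of Psmb8 (0.10, 0.02 to 0.18; 0.018 as the mean of per-cell CPM) and 246 and 261 of Psmb9 (-0.09, -0.19 to 0.02). B-like cells had 264 CPM in LYZKL and 268 in WTKL of Psmb8 and 199 and 177 of Psmb9, with intervals across 0.

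Nlrc5, the transactivator, gave the highest of the 60 ratios, in neutrophil-like cells, at 112 CPM in LYZKL (104 to 121) and 77.2 in WTKL (69.4 to 85.6), a log2 ratio of 0.53 (0.35 to 0.72). B-like cells had 77.1 CPM in LYZKL and 56.7 in WTKL on 107 and 106 UMIs (0.44, 0.04 to 0.84). CD8-like cells had 154 CPM in LYZKL and 142 in WTKL (0.12, 0.04 to 0.20; 0.036 with TMM scaling) and CD4 conventional-like cells 139 and 129 (0.11, 0.04 to 0.18). Treg-like cells had 121 CPM in LYZKL and 109 in WTKL and macrophage- or monocyte-like cells 58.8 and 56.6, with intervals across 0.

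The class that stood highest was the same in both libraries for 7 of the 10 members. Macrophage- or monocyte-like cells were highest for H2-K1, H2-D1, B2m and Tapbp in both libraries, and B2m ranged 4.28-fold over the classes in LYZKL and 4.16-fold in WTKL. Treg-like cells were highest for H2-Q7 and Tap2 in both. For Nlrc5 CD8-like cells were highest and macrophage- or monocyte-like cells lowest in both libraries, with the B-like class beside them inside the counting intervals. B-like cells were lowest for H2-D1, B2m, Tap1, Tap2 and Tapbp in both. Their counting interval overlapped that of the next class for Tap1 in both libraries and for Tapbp in WTKL. The full order was the same in both libraries for H2-Q7 and Nlrc5. For Psmb9, whose range was the narrowest (1.34-fold in LYZKL and 1.48-fold in WTKL), the Treg-like, CD8-like, macrophage- or monocyte-like and neutrophil-like levels overlapped from neighbour to neighbour in LYZKL. Free RNA from lysed cells can give UMIs in cells that do not express a gene, and its part in these levels was not tested. Lyz2, a macrophage gene, stood in CD8-like cells at 2.21% of its macrophage- or monocyte-like level in LYZKL and 3.39% in WTKL. In Treg-like, CD4 conventional-like and B-like cells it was at 1.18% or less of that level in both libraries.

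**Figure D3:**
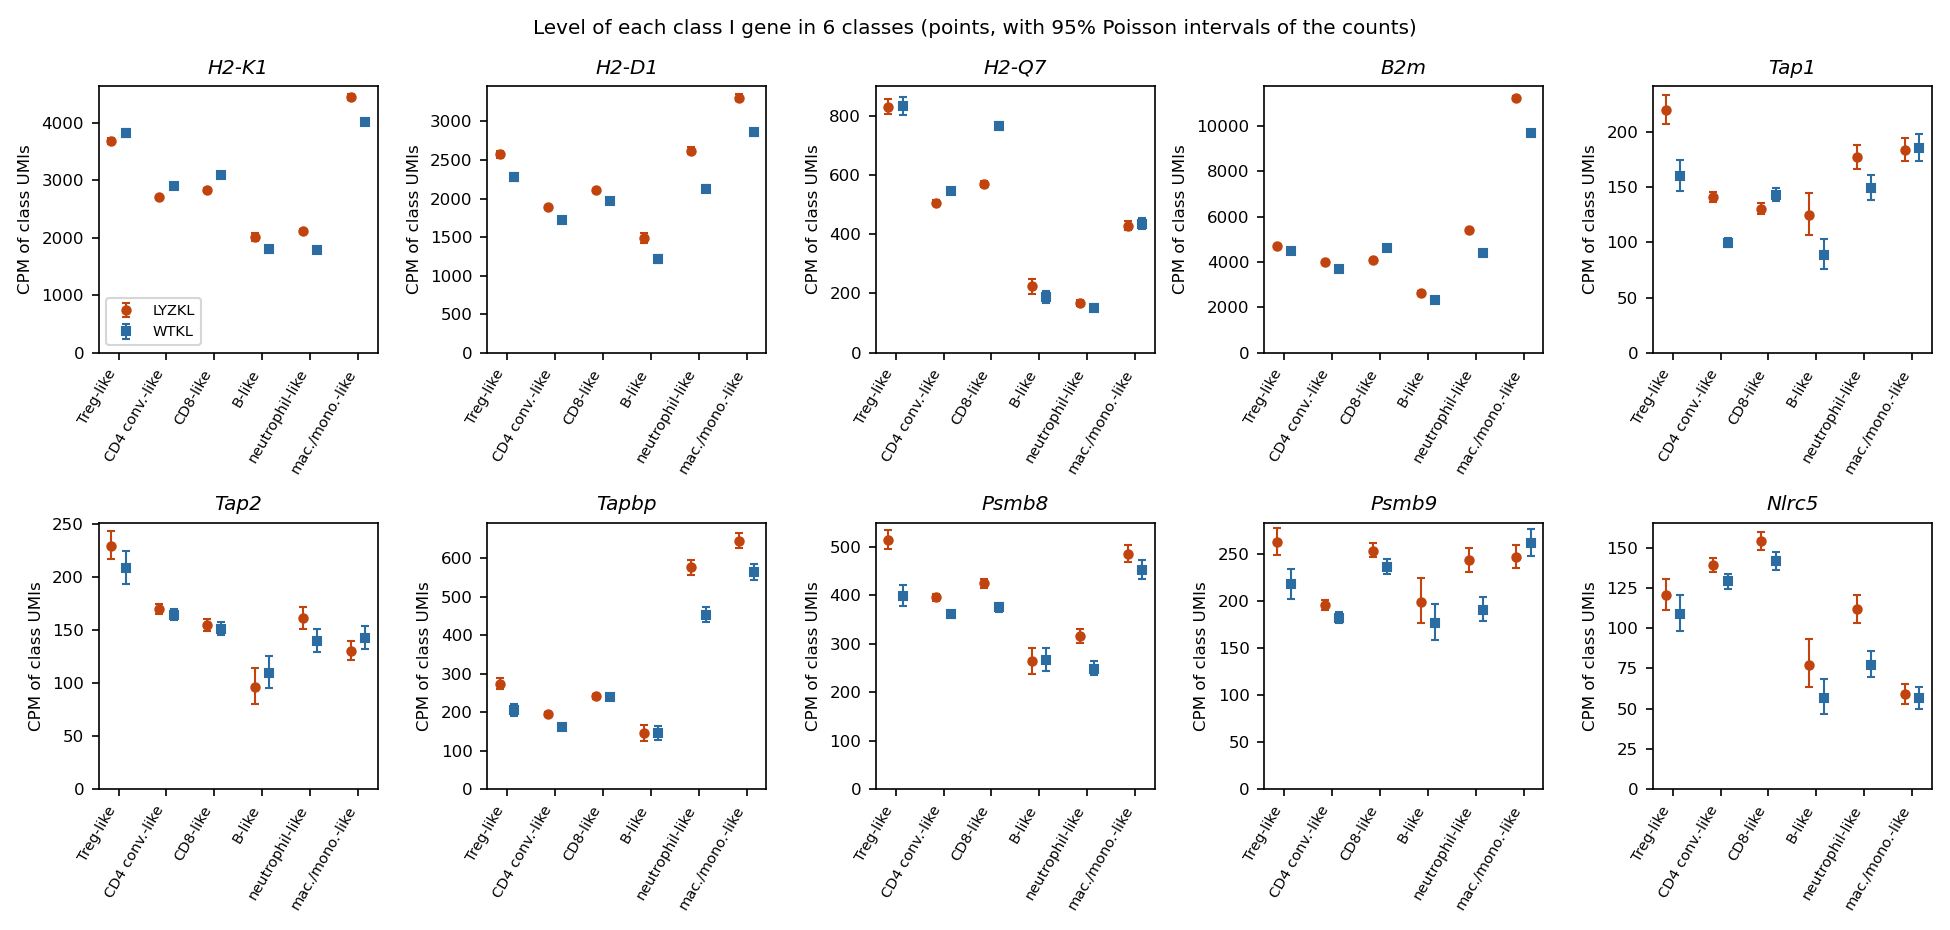
Level of each member in CPM of the class total, in 6 classes, for LYZKL (left point of each pair) and WTKL (right), with 95% Poisson intervals. Macrophage- or monocyte-like cells stand highest for B2m, at 11228 CPM in LYZKL and 9676 in WTKL, and lowest for Nlrc5, at 58.8 CPM in LYZKL and 56.6 in WTKL.

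Each class is a mix of states, and their shares differed between the libraries, so the members were also compared within states gated on other genes. Neutrophil-like cells with granule genes (at least 2 of Ngp, Camp and Retnlg, but not both Ccl3 and Hcar2) made up 15.3% of the class in LYZKL and 8.91% in WTKL. They had the lowest H2-K1 and B2m levels of the 3 states, with H2-K1 at 580 and 635 CPM and B2m at 1486 and 1615. Here 2 of 10 members were higher in LYZKL (49.9% of all genes; median -0.17), and H2-Q7 was at 63.3 CPM in LYZKL and 36.6 in WTKL (0.79, 0.10 to 1.53). Tapbp (136 CPM in LYZKL and 201 in WTKL, -0.56, -0.90 to -0.21) and Psmb9 (95.8 and 145 CPM, -0.60, -1.0 to -0.19) were lower. Cells with both Ccl3 and Hcar2 but fewer than 2 of those granule genes were 46.8% of the class in LYZKL and 38.6% in WTKL. In them 9 of 10 members were higher (49.8% of all genes; median 0.33), B2m standing at 8144 and 6587 CPM. In the remaining neutrophil-like cells 10 of 10 were higher (47.3%; median 0.38), and Nlrc5 was at 97.4 CPM in LYZKL and 53.9 in WTKL (0.85, 0.53 to 1.19). With the 3 states given the same UMI shares in both libraries the median of the class was 0.30. Retnlg also stands among the gate genes of the class.

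Macrophage- or monocyte-like cells were split by the marker set with the most UMIs. Those led by Saa3, Cfb or Nos2, which are genes of inflammatory macrophages, were 74.0% of the class in LYZKL and 54.6% in WTKL, and those led by Ear2, Fabp4 or Chil3 were 19.8% and 30.1%. Inside the first state 1 of 10 members was higher in LYZKL (53.4% of all genes; median -0.11 against 0.02 over all genes). H2-Q7 was at 507 CPM in LYZKL and 630 in WTKL there (-0.31, -0.40 to -0.23), Tap2 at 139 and 169 (-0.28, -0.45 to -0.11), Tap1 at 195 and 231 (-0.24, -0.39 to -0.10) and B2m at 12327 and 12434 (-0.01, -0.03 to 0.01). In the Ear2, Fabp4 or Chil3 state 8 of 10 were higher (45.2%; median 0.20), with B2m at 7633 CPM in LYZKL and 5271 in WTKL (0.53, 0.49 to 0.58). The first state had more class I in both libraries: H2-K1 stood at 5063 CPM in LYZKL and 5356 in WTKL in it and at 2304 and 1941 in the second. With the states at the same UMI shares the median of the class was -0.01 in place of 0.08, and H2-K1 turned to -0.04.

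CD8-like cells with Xcl1, Itga1 or Itgae, genes of tissue-resident T cells, but without Gzmk and Eomes were 49.3% of the class in LYZKL and 28.0% in WTKL. Naive-type cells (at least 2 of Ccr7, Lef1 and Tcf7, with no gene of either other set) were 8.14% and 23.1%. Gzmk or Eomes cells, without Xcl1, Itga1 and Itgae, were 7.29% and 16.2%. Cells with genes of both the Xcl1 and the Gzmk set were counted among the remaining cells. The members higher in LYZKL were 4 of 10 in naive-type cells (62.9% of all genes), 4 of 10 in Gzmk or Eomes cells (56.0%), 3 of 10 in Xcl1, Itga1 or Itgae cells (61.4%) and 2 of 10 in the remaining cells (59.4%). Their medians were -0.03, -0.06, -0.02 and -0.12. In the same order the log2 ratios of B2m were -0.27, -0.24, -0.17 and -0.31, and those of H2-Q7 -0.40, -0.42, -0.26 and -0.60. The shares of all genes in these states were not taken at the level of the members. Over the whole class 52.3% of genes of at least 100 CPM were higher. In the remaining cells H2-Q7 was at 607.5 CPM in LYZKL and 920.3 in WTKL, the only one of the 16 states where H2-K1, H2-D1 or H2-Q7 was lower by 1.5-fold. Naive-type cells were the lowest for B2m, with 2924 CPM in LYZKL and 3514 in WTKL. Psmb8 was higher in LYZKL in all 4 states (0.29, 0.21, 0.10 and 0.10), as it was in the whole class.

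**Figure D4:**
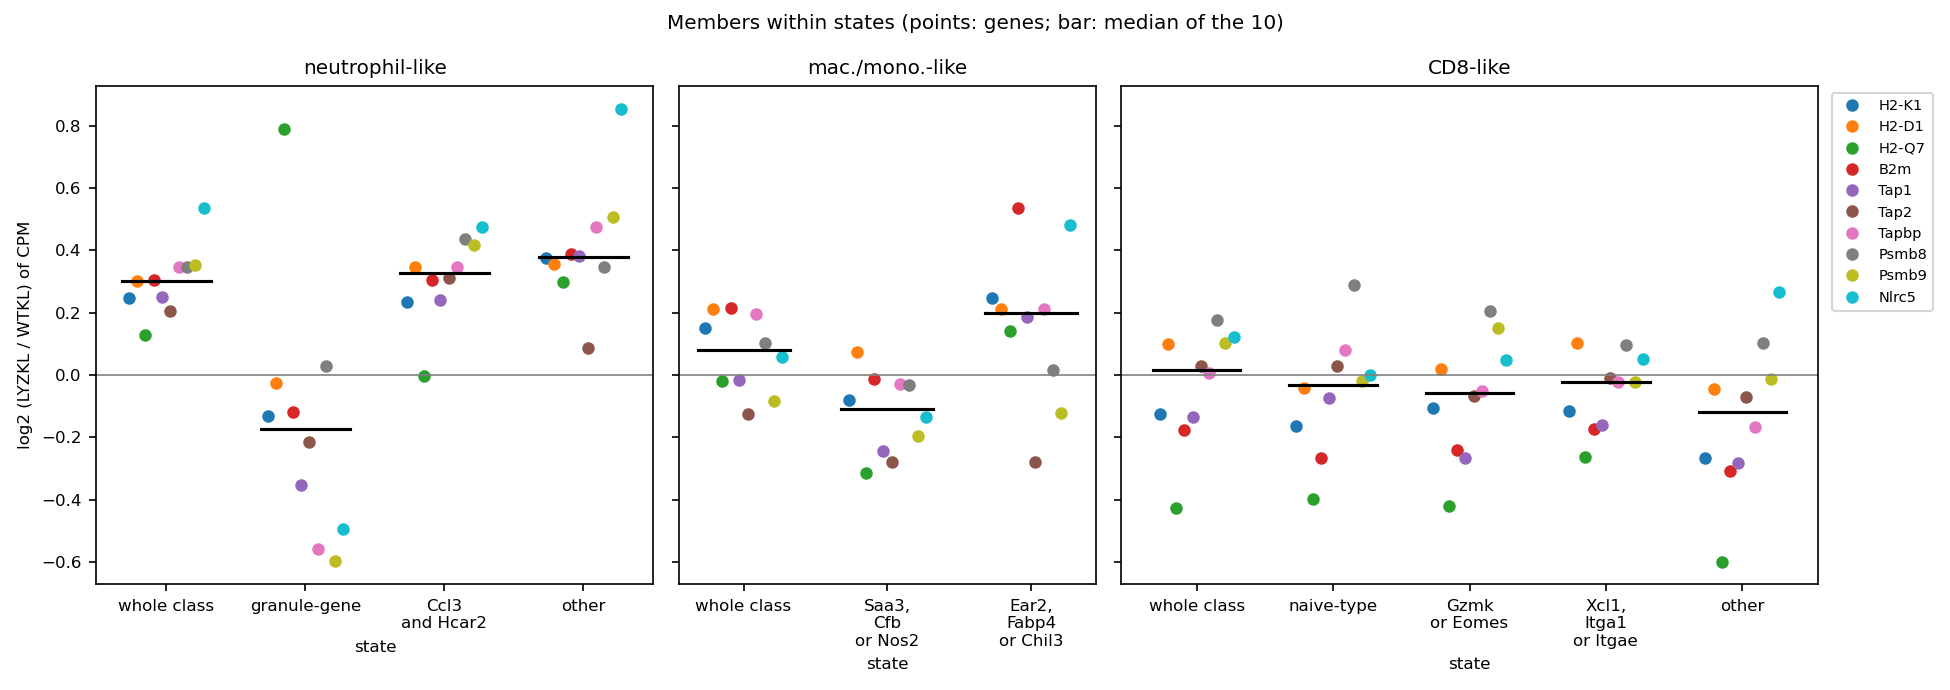
Log2 ratio of CPM, LYZKL over WTKL, of the 10 members in whole classes and in their states; each point is a gene and the bar is the median of the 10. The bar lies at 0.33 and 0.38 in 2 neutrophil-like states but at -0.17 in granule-gene cells, and at -0.11 and 0.20 in the 2 macrophage- or monocyte-like states.

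In CD4 conventional-like cells Tap1 was higher in LYZKL in all 4 states, at 127 CPM in LYZKL and 89.7 in WTKL in naive-type cells (0.50, 0.36 to 0.63), 144 and 93.6 in Th17-type cells, with at least 2 of Il17a, Il17f and Il22 (0.62, 0.45 to 0.80), 176 and 143.5 in Th1-type cells, with at least 2 of Tbx21, Cxcr3 and Ifng (0.29, 0.07 to 0.52) and 143 and 104 in the rest (0.46, 0.34 to 0.59). Treg-like cells expressing Il1rl1, Areg or Klrg1, 70.7% of the class in LYZKL and 68.8% in WTKL, had 235 and 175 CPM of Tap1 (0.43, 0.26 to 0.59) and 284 and 217 of Tapbp (0.39, 0.24 to 0.54), with 9 of 10 members higher in LYZKL (44.9% of all genes). In naive-type Treg-like cells 8 of 10 were higher (51.6%), and Psmb9 gave the highest ratio of the 16 states, at 222 CPM in LYZKL and 115.5 in WTKL on 114 and 41 UMIs (0.94, 0.42 to 1.496). In the remaining Treg-like cells 5 of 10 were higher (49.8%; median 0.025), with H2-K1 at 3320.5 CPM in LYZKL and 3905 in WTKL (-0.23, -0.32 to -0.15) and Tapbp at 267 and 151 (0.82, 0.42 to 1.23).

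Each cell was thinned to 2000 UMIs and the share with at least 1 UMI counted, with exact Clopper-Pearson intervals. For a gene of few UMIs this share largely follows its level and does not say how many cells carry it. Thinned Treg-like cells had a mean of 0.466 Tap1 UMIs in LYZKL and 0.303 in WTKL. The variance over that mean was 1.03 and 1.37, where counting error alone gives about 1. Tap1 was found in 36.7% of Treg-like cells in LYZKL (32.8 to 40.7) and 22.7% in WTKL (19.2 to 26.5), and in 22.4% and 16.6% of CD4 conventional-like cells. Without thinning the Treg-like shares were 71.2% in LYZKL and 48.0% in WTKL, at unequal depths. Among CD8-like cells Tap1 was in 22.9% in LYZKL and 24.4% in WTKL, and H2-Q7 in 65.9% (64.1 to 67.6) and 74.1% (72.3 to 76.0). Nlrc5 was in 18.9% (16.8 to 21.2) of neutrophil-like cells in LYZKL and 12.1% (10.2 to 14.2) in WTKL, and H2-D1 in 96.5% and 90.0%. B2m was in 94.9% or more of the cells of every class in both libraries. Thinning left out 87 neutrophil-like cells in LYZKL and 80 in WTKL, 122 and 46 CD8-like cells, and 10 Treg-like cells in each. All classes express class I and no barcode has under 500 UMIs, so these shares have no class without the genes to set the background.

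Other genes of the pathway were taken from lists. In Treg-like cells Psmb10, Psme1 and Psme2, the third inducible subunit and the proteasome activator, were all higher in LYZKL, with a median of 0.32, and in neutrophil-like cells as well (median 0.39), Psme2 reaching 363 CPM in LYZKL and 241 in WTKL (0.59, 0.48 to 0.70). In CD8-like cells 1 of these 3 was higher (median -0.17). Psmb5, Psmb6 and Psmb7, the constitutive subunits that the inducible ones replace, were 3 of 3 higher in every class but B-like cells. Their median was 0.31 in CD4 conventional-like cells but 0.04 in CD8-like cells, where TMM scaling moves every log2 ratio by -0.086. Of the other class I genes 9 of 10 were in the matrices. Of these, 5 of 7 that reached 5 CPM were higher in Treg-like and in CD4 conventional-like cells, 1 of 6 in CD8-like cells, 6 of 7 in B-like cells, 7 of 8 in neutrophil-like cells and 6 of 8 in macrophage- or monocyte-like cells. The share of all genes higher, to set beside all these lists, was 46.4% in Treg-like, 48.5% in CD4 conventional-like and 66.1% in CD8-like cells. The CD8-like share depends on level, being 52.3% for genes of at least 100 CPM. It was 52.3% in B-like, 46.6% in neutrophil-like and 44.2% in macrophage- or monocyte-like cells. Among these other class I genes, past 1.5-fold were H2-Q4 (233 CPM in LYZKL and 153 in WTKL), H2-Q6 and H2-T24 (18 UMIs in LYZKL and 7 in WTKL) in B-like cells, all higher in LYZKL. Of all genes in B-like cells, 15.4% were past 1.5-fold in either direction. Tapbpl, a relative of tapasin, was past 1.5-fold in neutrophil-like cells (34.3 CPM in LYZKL and 21.2 in WTKL, 0.70, 0.34 to 1.06), as were 10.9% of all genes there. Pdia3, the disulphide isomerase of the loading complex, had log2 ratios from -0.17 to -0.07 in the 6 classes, with intervals across 0 in B-like and neutrophil-like cells.

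Among the transcriptional regulators, Irf1 acts downstream of interferons. It was at 427 CPM in LYZKL and 352.5 in WTKL in Treg-like cells (0.28, 0.17 to 0.38) and at 266 and 232.5 in CD4 conventional-like cells (0.19, 0.14 to 0.25). Irf1 was at 272 CPM in LYZKL and 387 in WTKL in CD8-like cells (-0.51, -0.56 to -0.45), at 483 and 305 in B-like cells (0.66, 0.50 to 0.83) and at 1276 and 971 in neutrophil-like cells (0.39, 0.34 to 0.45). Macrophage- or monocyte-like cells had 347 CPM in LYZKL and 392 in WTKL (-0.18, -0.27 to -0.09). The 8 regulators reported on, of which 6 to 8 reached 5 CPM, had medians between -0.18 and 0.02 over the classes.

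Over the 12 combinations of class and library, the genes whose log2(CPM + 1) was most like that of Tap1 included Gbp3 (Pearson r 0.954), Eif2ak2 (0.911), Parp9 (0.907) and Gbp7 (0.882). Those most like B2m were Npc2 (0.982), Cox7a2, Ctsa, Sgk1 and Slc36a1 (0.966). Psmb9 was most like Tapbpl (0.921), followed by Htatip2, Lmna, Mt2 and Reep5 (0.832), and Nlrc5 most like Slc37a3 (0.95), Rab11fip4, Esyt2, Gramd1c and Cracr2a (0.925). Among the members, H2-D1 followed B2m (0.928) and Tap1 (0.884), but H2-Q7 less so (0.281). The r of Nlrc5 with the other members ran from -0.328 (Tapbp) to 0.610 (Tap2). These are descriptions over points that share libraries, out of 7920 genes that reached 20 CPM in any point.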

How the data were processed

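Deposited by the authors were matrices of raw UMI count per gene and barcode, made with Cell Ranger 6.1.2 on mm10 per the submitters' processing notes, from 10x 3' v3.0 libraries per the labels' protocols. The deposited gene and barcode files hold labels only. Total UMIs were 93584629 in LYZKL and 77181312 in WTKL. The members and lists, and the gates, were chosen with earlier results of these data known, and the gate thresholds were set after seeing the data.

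A cell was put in a lineage by detected markers (T at least 3 of 7, B 2 of 4, neutrophil 2 of 6, macrophage 3 of 7). A cell whose second lineage also passed with marker UMIs of at least 33.3% of those of the first was left out, which removed 4.66% of kept cells in LYZKL and 5.92% in WTKL. T cells were split by Foxp3, Cd4 and the Cd8 genes, and 1899 in LYZKL and 1887 in WTKL stayed unsplit. States came from the detection of their marker genes, so they depend on depth. CD8-like, CD4 conventional-like and neutrophil-like cells that met the gates of both states other than naive-type were put with the remaining cells. T cells that met the naive-type gate and another gate were not called naive-type. Some genes of the lists are not reported here. Scrublet's automatic threshold marked no cell in either library, so no doublets were removed in the main values and the highest scores, at a preset rate, were left out in an alternative.

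Within each library, the UMIs of a class were added up and divided by the class total. Intervals of CPM are exact Poisson and those of ratios exact conditional binomial. For pairs of genes, the interval within a library is Clopper-Pearson, and that of the difference between libraries comes from the log odds ratio (Woolf). All are at 95%, and the ratio script was tested on simulated data. The intervals of levels and ratios treat UMIs as independent. In neutrophil-like cells thinned to 2000 UMIs, B2m had a variance over mean of 10.2 in LYZKL and 11.1 in WTKL. Counting error alone gives about 1. Named related genes were those of 5 lists at 5 CPM or more and past 1.5-fold, or examples from each list, and the genes most like B2m, Tap1, Psmb9 and Nlrc5 were the 5 with the highest r. Alternatives changed the cell filter, gates, doublets, scaling, summary and thinning. Python 3.11.15, scanpy 1.11.5, leidenalg 0.10.2, R 4.3.3 and edgeR 4.0.16 were used.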

Additional observations from a re-analysis of the deposited data

Results flagged for a closer look

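H2-Q7 had a log2 ratio, LYZKL over WTKL, of 0.26 in B-like cells and -0.43 in CD8-like cells. Tap1 had 0.51 in CD4 conventional-like cells and -0.14 in CD8-like cells. Both were picked out because the 2 libraries differ in opposite directions in 2 classes, with counting intervals off 0 and ratios at least 1.5-fold apart. The difference between the classes was not tested, since each group is 1 library. Tap1 in CD8-like cells turned to 0.034 with Leiden clusters as classes.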

How the results depend on the processing

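The median log2 ratio of the members was recomputed under up to 11 other settings per class and, added after the data were seen, with the states of a class at the same UMI shares in both libraries. The medians that left the main interval were 0.069 in CD4 conventional-like cells with Leiden clusters as classes (0.112 as reported), 0.201 with 1 more lineage marker required and 0.406 with the mean of per-cell CPM in neutrophil-like cells (0.303 as reported) and, in CD8-like cells (0.017 as reported), -0.069 with edgeR TMM scaling. With the states at the same UMI shares the CD8-like median was -0.052, inside its interval. The cause was not tested. Of 630 values of single members under these settings, 540 stayed inside their main interval, 87 left it, and 3 more, whose main interval lay off 0, changed sign: H2-K1 in Treg-like cells to 0.033 with the mean of per-cell CPM, Tap1 in CD8-like cells to 0.034 with Leiden clusters, and, with the states at the same UMI shares, H2-K1 in macrophage- or monocyte-like cells to -0.035. Among the 540 and the 87, 20 values of members whose main interval lay across 0 also changed sign. Of 18 ratios of thinned shares, 4 left their interval at 1000 UMIs per cell, those of Nlrc5 changing sign to -0.051 in CD4 conventional-like and -0.081 in B-like cells.

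Leiden clusters gave no value for B-like and macrophage- or monocyte-like cells, whose clusters carried markers of other classes and stayed unnamed, and gamma-delta T-like cells, under 50 in both libraries, gave no value at all. No paired analysis was possible because each group is 1 library. Depth limits B-like cells most, where Nlrc5 rests on 107 UMIs in LYZKL and 106 in WTKL.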
